A study of Mus musculus with 8 samples.

Results

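Neuronal marker genes were followed in RNA-seq of immature oligodendrocytes (iOLs), glial cells in which neuronal transcripts are often read as a sign of neurons left in the culture. The set holds 10 genes chosen by symbol: Tubb3, Dcx, Stmn2, Map2, Nefl and Nefm of the cytoskeleton, the growth-cone gene Gap43, the synaptic genes Snap25 and Syt1, and Rbfox3, of the 24346 genes listed. All 10 passed the filter of a mean level of 1 FPKM or more, which left 12328 genes, and each also had a mean above 1 FPKM in both genotypes. The genes were chosen with results of the genotype comparison known, so the difference between the genotypes is given for them as a description: no p-value is printed for a member, and counts of members past a limit are not evidence of a difference.

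The 8 libraries were made from primary mouse oligodendrocyte precursor cells (OPCs), 4 from Med23+/+ and 4 from Med23-/- cells, labelled WT and MED23KO. All 8 cultures were treated alike, for 1 day with the thyroid hormone triiodothyronine (T3) at 15 nM, which starts differentiation, and with the cytokine CNTF at 10 ng/mL. The OPCs came from brains at postnatal day 7, and the Med23-/- cells from Med23-floxed mice with Cre under Olig1, so that only cells with a history of Olig1 expression lose the gene; per the study the control littermates were Med23 fl/fl without Cre, so the cells named Med23+/+ carry floxed alleles. Endothelial cells and microglia were removed on BSL1-coated plates and the OPCs selected on an antibody to CD140a, the protein of Pdgfra, with no stated step against neurons. The labels number the libraries of each genotype 1 to 4 and do not say whether they came from separate animals, so the spread between them may be partly technical.

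Neurons build long axons and dendrites from microtubules and neurofilaments and release transmitter by calcium-triggered fusion of vesicles. Their marker genes code for parts of these structures, and many are held silent in other cells by the repressor REST. Several are nevertheless used outside neurons: OPCs receive synapses, carry an unusually neuron-like transcriptome and are known to contain Map2, Gap43 and some synaptic transcripts, whereas Rbfox3, whose protein is the antigen NeuN, is a marker of mature neurons. In bulk RNA, more cells of a type and more RNA per cell cannot be told apart.

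Med23 (chromosome 10, 24869986 to 24913681, mm10) averaged 12.5 ± 0.225 FPKM in the Med23+/+ genotype against 8.26 ± 0.247 FPKM in the Med23-/- genotype (SD, n = 4 per genotype), so transcript of the gene was still measured in every Med23-/- library. The log2 difference was -0.55 (standard error 0.07, limma adjusted p = 0.000353). FPKM counts fragments scaled by transcript length and library size, and log2 differences here are differences in the mean of log2(FPKM + 1), Med23-/- minus Med23+/+, which understate changes of low genes. Markers of the expected lineage were abundant: the 10 OPC genes summed to between 2498 and 3113 FPKM in the libraries of both genotypes. Within that sum 2 genes rose past both limits explained next, beside 2.98% of all genes tested: Pdgfra by a log2 difference of 1.47 and Cspg4 by 1.39. Another 2 fell past them, beside 1.75% of all genes: Gpr17 by -1.05 and Tnr by -1.13. Gpr17 and Tnr were both short of the fold limit without Med23-/- replicate 4 (-0.78 and -0.96). The 10 oligodendrocyte genes summed to between 1394 and 1723 FPKM in Med23+/+ and between 371 and 639 FPKM in Med23-/- libraries. Of the 9 tested, 8 fell past both limits of the call, beside 1.75% of all genes. These limits are a limma adjusted p under 0.05 and more than a 2-fold change of FPKM + 1. Of the microglial list no gene reached a mean of 1 FPKM, and its 10 genes together summed to between 1.10 and 2.62 FPKM in a library.

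Levels of the members spanned a wide range. By mean FPKM in Med23+/+ iOLs, Map2 led with 161 ± 12.7, followed by Dcx with 44.1 ± 5.36 and Gap43 with 40.8 ± 4.41 (SD, n = 4). Tubb3 (13.4 ± 4.005), Snap25 (12.8 ± 2.47) and Stmn2 (9.26 ± 3.07) formed a middle group in FPKM. Nefl (5.23 ± 0.947), Syt1 (3.89 ± 0.906), Rbfox3 (2.45 ± 0.785) and Nefm (1.62 ± 0.155) were lowest. Dcx and Gap43 changed order between the Med23+/+ libraries, as did Tubb3 and Snap25, while Stmn2 was below both Tubb3 and Snap25 in all 4. Map2 stood above every other member in every library.

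Map2 (chromosome 1, 66175273 to 66442583) codes for a microtubule-associated protein of dendrites that is also made in the oligodendrocyte lineage. In replicate order, the Med23+/+ libraries held 149, 178, 164 and 154 FPKM and the Med23-/- libraries 195, 199.8, 192 and 220.1 FPKM. The Med23-/- libraries were all higher, but by a ratio of means of only 1.25, and Map2 varied little within a genotype.

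Dcx (chromosome X, 143855842 to 143933311) codes for doublecortin, a microtubule-binding protein of migrating young neurons. It had 46.6, 49.6, 43.1 and 37.1 FPKM across the Med23+/+ replicates against 67.1, 66.5, 63.6 and 58.3 FPKM across the Med23-/- replicates. As with Map2 the genotypes did not overlap, the ratio of means was modest (1.45), and the Med23-/- libraries lay within a factor of 1.15 of each other.

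Gap43 (chromosome 16, 42248442 to 42340651) codes for a membrane protein of growth cones. It stood at 41.9, 43.8, 34.3 and 43.2 FPKM across the Med23+/+ replicates against 71.0, 52.1, 67.7 and 88.9 FPKM across the Med23-/- replicates. The Med23-/- libraries were spread more widely, with replicate 2 low and replicate 4 high.

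Tubb3 (chromosome 8, 123411424 to 123422015), the neuronal class of beta-tubulin, had 19.4, 10.8, 11.5 and 11.9998 FPKM across the Med23+/+ replicates against 30.4, 24.0, 23.3 and 24.9 FPKM across the Med23-/- replicates. Replicate 1 was the highest library in both genotypes and the other libraries were close together. The ratio of means was 1.91.

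Stmn2 (chromosome 3, 8509360 to 8561606), which codes for a tubulin-binding protein of growing axons, stood at 13.6, 9.33, 6.81 and 7.31 FPKM in Med23+/+ cultures. The Med23-/- libraries reached 24.1, 17.2, 48.5 and 30.05 FPKM. The highest Med23-/- library, replicate 3, held 2.82 times the level of the lowest, replicate 2, and every Med23-/- library was above every Med23+/+ library.

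Snap25 (chromosome 2, 136713453 to 136782428) codes for a SNARE protein that drives the fusion of synaptic vesicles. Its values were 16.5, 11.8, 11.6 and 11.3 FPKM across the Med23+/+ replicates against 28.9, 23.3, 44.2 and 38.7 FPKM across the Med23-/- replicates. The order of the Med23-/- libraries was the same as for Stmn2 at its top and bottom, replicate 3 and replicate 2.

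Syt1 (chromosome 10, 108497650 to 109010982), the calcium sensor of fast transmitter release, had 4.53, 2.81, 3.47 and 4.74 FPKM across the Med23+/+ replicates against 7.74, 5.08, 21.1 and 16.9 FPKM across the Med23-/- replicates. Replicates 3 and 4 of Med23-/- stood far above replicates 1 and 2, and the highest was 4.15 times the lowest. This was the widest spread of any member within a genotype.

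Rbfox3 (chromosome 11, 118489762 to 118911597), a splicing regulator in the nucleus of mature neurons, was low but measured in every library. It had 3.55, 1.83, 1.94 and 2.49 FPKM across the Med23+/+ replicates against 5.997, 3.82, 7.09 and 8.01 FPKM across the Med23-/- replicates. The ratio of means was 2.54, and replicate 2 was again the lowest library of each genotype.

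The neurofilament genes Nefl and Nefm lie on opposite strands of chromosome 14, with the annotated span of Nefl inside that of Nefm. Nefl (68083863 to 68089095, plus strand), the light chain, had 6.09, 5.72, 3.92 and 5.20 FPKM across the Med23+/+ replicates against 11.4, 7.60, 9.60 and 10.8 FPKM across the Med23-/- replicates. Nefm (68082590 to 68124846, minus strand), the medium chain, had 1.39, 1.67, 1.72 and 1.69 FPKM across the Med23+/+ replicates against 2.54, 1.51, 1.84 and 3.36 FPKM across the Med23-/- replicates. Nefm was the only member whose genotypes overlapped. Annotated exons of the neurofilament pair overlap on opposite strands and the alignment was run at default settings without a stated strand option, so reads of the shared stretch cannot be assigned with certainty. Map2 likewise shares exon sequence with the antisense gene Gm10558.

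**Figure D1:**
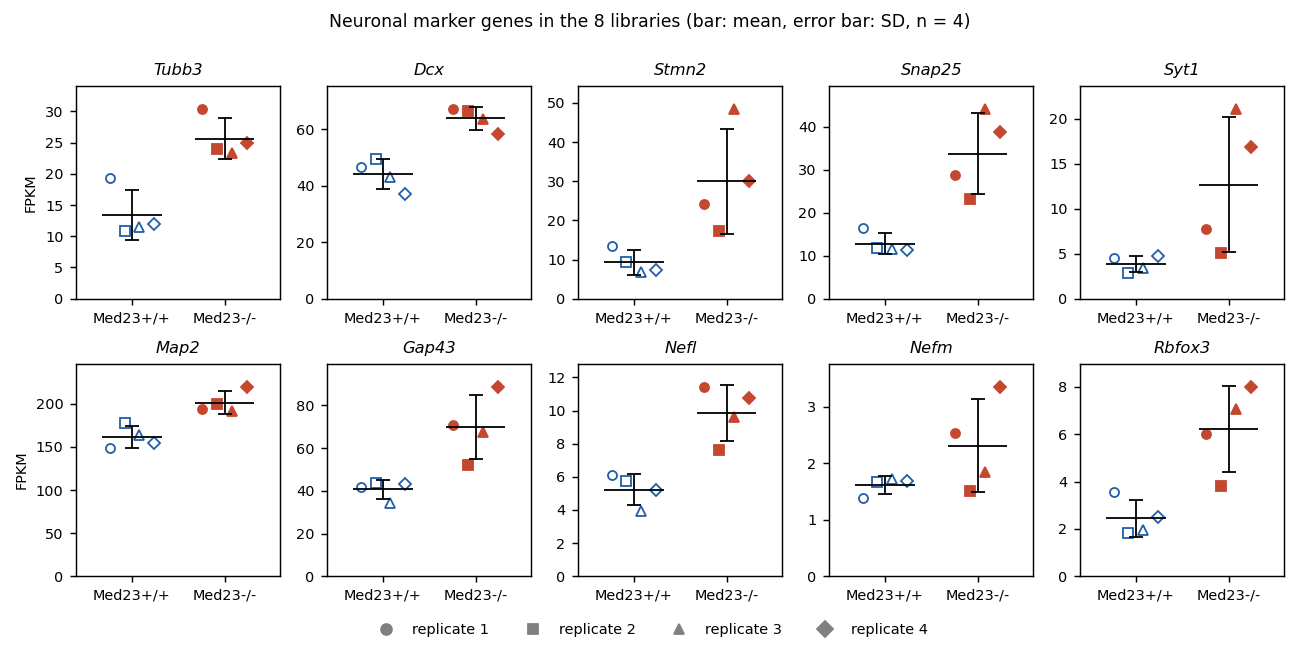
FPKM of the 10 members, a panel for each, with open blue symbols for the 4 Med23+/+ and filled red symbols for the 4 Med23-/- libraries, the symbol shape giving the replicate number, and the horizontal bar and error bar the mean and SD. Each vertical axis starts at 0; the Med23-/- libraries lie above the Med23+/+ libraries for 9 genes and overlap them for Nefm.

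Set against all genes, 9 of the 10 members had every Med23-/- library above every Med23+/+ library, where 16.3% of the 12328 genes tested did. By limma with Benjamini-Hochberg adjustment over all genes, 4 members (Stmn2, Snap25, Syt1 and Rbfox3) met both limits as higher in Med23-/- iOLs, beside 2.98% of all genes, while 1.75% of all genes met them as lower and no member had a lower mean. The median log2 difference of the members was 0.86 and that of all genes tested -0.01. Since the choice of the members used this comparison, nothing is read from these shares. The log2 differences ran from 0.31 (standard error 0.17) for Nefm and 0.32 (0.08) for Map2 to 1.32 (0.36) for Syt1 and 1.54 (0.29) for Stmn2. The number of members past both limits depended on single libraries: it was 2 without Med23+/+ replicate 2, 2 without Med23+/+ replicate 3 and 2 without Med23-/- replicate 4.

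Replicates 1 and 2 of each genotype and replicates 3 and 4 of each genotype gave sizes of difference that were far apart for some members and closer for others. Stmn2 differed by 0.80 on the log2 scale over replicates 1 and 2 and by 2.28 over replicates 3 and 4. For Syt1 the differences were 0.67 and 1.97, for Snap25 0.85 and 1.76, and for Rbfox3 0.69 and 1.41. Gap43 (0.50 and 0.99) and Nefl (0.58 and 1.02) lay between. Tubb3 (0.85 and 0.98), Dcx (0.47 and 0.59), Nefm (0.24 and 0.38) and Map2 (0.28 and 0.37) were closest. All 10 members were higher in Med23-/- within each of these sets of libraries. The split was chosen after the data were seen and leaves 2 libraries per genotype in a set, so the difference between the sets is a description and was not tested. As a description only, 0 members met both limits of limma over replicates 1 and 2, beside 1.74% of all genes. Over replicates 3 and 4, 5 members met them, beside 3.86%.

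**Figure D2:**
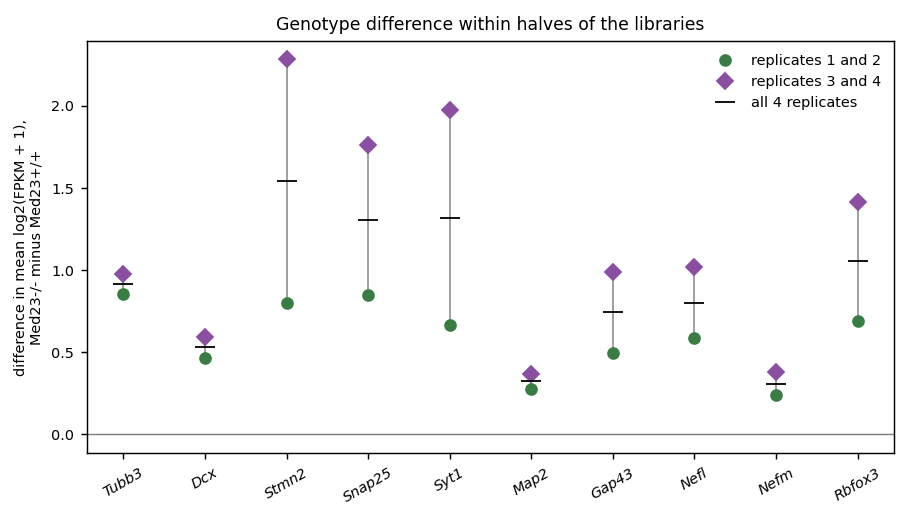
Difference in mean log2(FPKM + 1) between Med23-/- and Med23+/+ iOLs for each member. Replicates 1 and 2 are green circles, replicates 3 and 4 purple diamonds and all 4 replicates black bars. The split was chosen after the data were seen. The points lie farthest apart for Stmn2, Syt1, Snap25 and Rbfox3, less so for Gap43 and Nefl, and close together for Tubb3, Dcx, Nefm and Map2; all lie above 0.

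Covariation was examined within each genotype, so that the difference between genotypes could not produce it. Each library's log2(FPKM + 1) was taken as its deviation from the mean of its genotype. In Med23-/- iOLs, replicate 2 was the lowest library for 7 of the 10 members, against 23.6% of all genes tested, and the highest for 0 of them. Its deviations reached -0.98 for Syt1, -0.67 for Stmn2, -0.55 for Rbfox3 and -0.48 for Snap25. Replicate 3 was the highest for Stmn2 (0.77), Snap25 (0.42) and Syt1 (0.88), and replicate 4 the highest for Map2 (0.13), Gap43 (0.37), Nefm (0.43) and Rbfox3 (0.36).

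In Med23+/+ iOLs, replicate 1 was the highest library for 5 members, against 26.5% of all genes. These were Stmn2 with a deviation of 0.55, Tubb3 with 0.54, Rbfox3 with 0.42, Snap25 with 0.36 and Nefl with 0.20. Map2 and Nefm went the other way, with replicate 1 their lowest library at -0.11 and -0.13.

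The spread differed between the members. Over genes that averaged 5 FPKM or more the median ratio of the highest to the lowest library was 1.24 in Med23+/+ and 1.28 in Med23-/- iOLs. In Med23-/- iOLs Syt1, with a ratio of 4.15, lay at the 99.6th percentile of these genes, Stmn2 (2.82) at the 99.0th and Snap25 (1.90) at the 95.0th. Map2 (1.15) and Dcx (1.15) lay at the 16.8th and 18.0th percentiles there. In Med23+/+ iOLs, however, Dcx (1.34) lay at the 72.0th percentile and Map2 (1.20) at the 36.9th, so Dcx was below the typical spread in the Med23-/- genotype alone. In Med23+/+ iOLs Stmn2 (1.99) and Tubb3 (1.80) lay at the 97.1st and 95.5th percentiles.

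**Figure D3:**
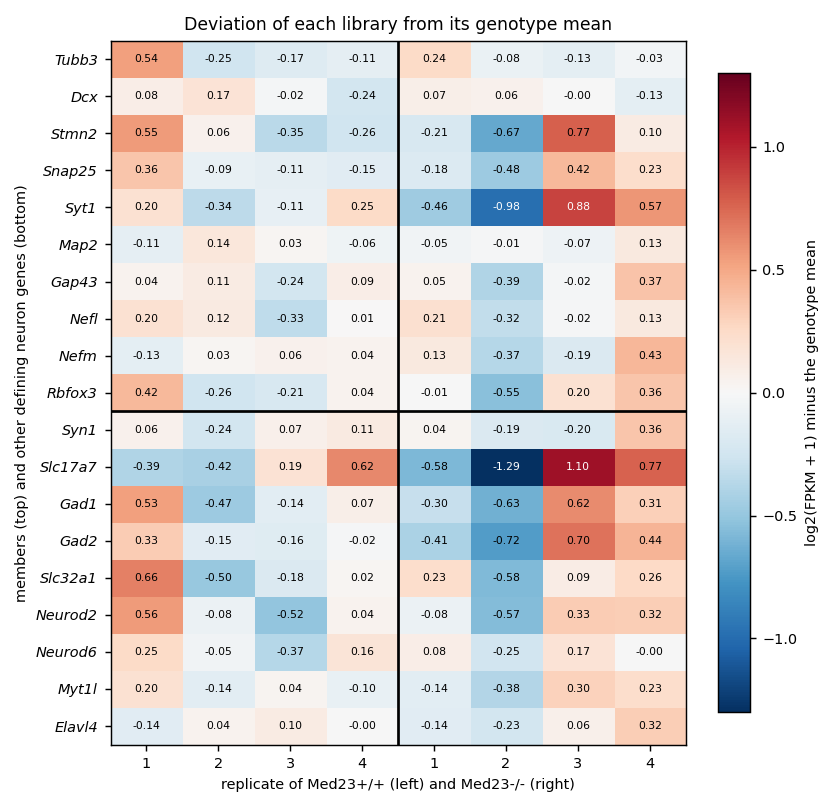
Deviation of each library from the mean of its genotype in log2(FPKM + 1). Rows above the line are the 10 members. Rows below it are the 9 tested genes of a list of defining neuron genes, drawn from the neuronal lists described below. The 4 Med23+/+ libraries are at the left and the 4 Med23-/- libraries at the right. Red is above and blue below the genotype mean. The column of Med23-/- replicate 2 is blue for Stmn2, Snap25, Syt1, Rbfox3 and for each of the 9 genes below the line.

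Likeness of profiles was measured as the Euclidean distance between the deviations of 2 genes over the 8 libraries, each scaled to unit SD, and ranked among all genes tested. Seen from Snap25, Stmn2 lay at the 0.195th percentile of distance, where 0 is the nearest gene, and Rbfox3 and Syt1 lay at the 0.909th and 0.941st percentiles. Stmn2, Syt1 and Rbfox3 lay within the nearest 3.03% of each other. The distance pools the 8 libraries, and in Med23+/+ iOLs alone Syt1 differed from Stmn2. In replicate order, the Med23+/+ deviations were 0.20, -0.34, -0.11 and 0.25 for Syt1, against 0.55, 0.06, -0.35 and -0.26 for Stmn2. Nefl and Gap43 were also near each other, Gap43 lying at the 1.23rd percentile seen from Nefl and Nefl at the 3.34th seen from Gap43.

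Over the 8 libraries pooled, Map2, Dcx and Tubb3 lay farther from Stmn2, Snap25, Syt1 and Rbfox3 than these 4 genes lay from each other. Seen from Map2, Snap25 lay at the 62.8th and Syt1 at the 58.5th percentile of distance. Seen from Dcx, Snap25 lay at the 48.3rd and Syt1 at the 80.5th percentile, and seen from Tubb3, Snap25 lay at the 25.4th. With 4 libraries a genotype these profiles rest on few points, and all genes share the same 8 libraries, so the distances are a description.

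**Figure D4:**
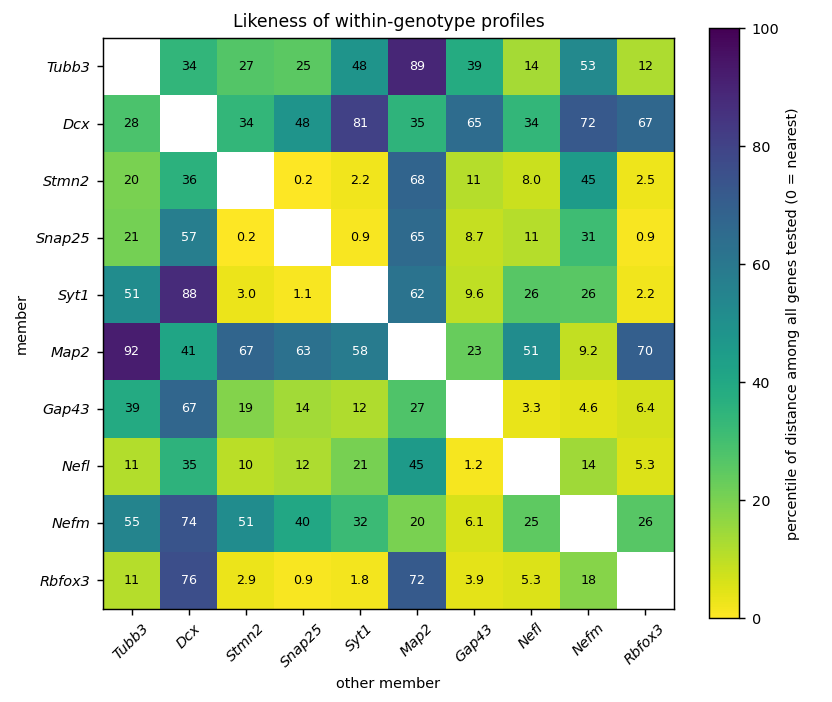
Rank of each other member (columns) by the distance of its within-genotype profile from that of a member (rows), as a percentile among all genes tested, where 0 is the nearest. The cells among Stmn2, Snap25, Syt1 and Rbfox3 lie at 3.03 or lower, while the rows of Dcx and Map2 hold no cell below 9.

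Ratios between members within a library were steady for some pairs and not for others. Rbfox3 stayed at between 0.155 and 0.220 times the FPKM of Snap25 in all 8 libraries, although Snap25 itself ranged from 11.3 to 44.2 FPKM. Stmn2 lay between 0.586 and 1.10 times Snap25. Map2 over Snap25 ranged from 4.34 to 15.0, with its lowest value in Med23-/- replicate 3 and its highest in Med23+/+ replicate 2, and Dcx over Snap25 from 1.44 to 4.20. Ratios of Tubb3 to Snap25 were between 0.914 and 1.17 in 6 libraries and were 0.527 and 0.643 in Med23-/- replicates 3 and 4.

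Genes outside the set showed which other transcripts had these profiles. Of the 123 genes nearest to Snap25, 1% of those tested, 3 were members and 12 came from 4 further neuronal lists of cytoskeletal, synaptic, transcription factor and transmitter genes. Those 12 included the glutamate decarboxylase genes Gad1 and Gad2, the proneural factor genes Neurod1 and Neurod2, the hormone gene Sst and Reln, which codes for the secreted protein reelin. For Syt1, 9 such genes were among the nearest 123, among them Gad1, Gad2, Calb2 and the vesicular glutamate transporter gene Slc17a7. For Dcx, Map2, Gap43 and Nefm there were 0. The 5 genes of at least 5 FPKM nearest to the mean profile of all 10 members were none of the listed neuronal genes: Ywhah, S100a10, Snhg3, Ndufa4 and Ubash3b, at distances of 0.908, 0.952, 0.962, 0.990 and 1.02. The members themselves lay between 1.37 (Rbfox3) and 4.004 (Dcx) from their own mean profile, and the median gene at 4.11, so the mean profile does not stand for the members as a group.

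Across the 4 further lists, 58 different genes were tested. In Med23+/+ iOLs 41 of the 58 were highest in replicate 1, against 26.5% of all genes, and 2 in replicate 2. In Med23-/- iOLs 35 of the 58 were lowest in replicate 2, against 23.6% of all genes, and 0 were highest there. In replicate 3 29 were highest, against 25.1% of all genes, but 14 were lowest, against 26.2%. A further 17 were highest in replicate 1, against 19.0%. Of 35 tested genes from the members' protein families, some also among the 58, 21 were lowest in Med23-/- replicate 2 and 3 highest there. In Med23-/- replicate 4 21 of them were highest, against 33.5% of all genes. Of 17 genes of the REST repressor complex 2 were lowest in Med23-/- replicate 2. A list of 12 genes that define neurons, all drawn from the 4 further lists, summed to between 39.8 and 57.2 FPKM in Med23+/+ libraries. In Med23-/- libraries its sum was between 72.1 and 128 FPKM. Of its 9 tested genes, already counted among the 58, 8 were lowest in Med23-/- replicate 2. Med23+/+ replicate 1 and Med23-/- replicates 2 and 3 are the libraries in which Stmn2 and Snap25 were high or low. All 13 tested transcription factor genes were highest in Med23+/+ replicate 1. In Med23-/- iOLs they were split, with 5 highest in replicate 1, 5 in replicate 3 and 3 in replicate 4, while 7 were lowest in replicate 2 and 6 in replicate 3. Of the 9 tested transmitter genes 7 were highest in Med23+/+ replicate 1. In Med23-/- iOLs 8 of these 9 were highest in replicate 3 and 8 were lowest in replicate 2.

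Markers of other cells moved with the same libraries in part. Of the 9 tested astrocyte genes 7 were highest in Med23+/+ replicate 1 and 7 in Med23-/- replicate 3, with Gfap, the filament protein gene of astrocytes, at 30.03, 10.8, 6.56 and 6.91 FPKM across the Med23+/+ replicates against 2.51, 2.33, 6.397 and 1.23 FPKM across the Med23-/- replicates. The summed astrocyte list was lower in Med23-/- (117 to 171 FPKM) than in Med23+/+ libraries (242 to 299 FPKM), a separation carried by S100b, which ran from 105 to 161 FPKM in Med23+/+ and from 9.31 to 23.6 FPKM in Med23-/- libraries. Without S100b the sums overlapped, at 183, 137, 139 and 128 FPKM across the Med23+/+ replicates against 103, 94.3, 147 and 126 FPKM across the Med23-/- replicates. Of the 9 tested astrocyte genes 4 fell past both limits (Gfap, Aqp4, Fgfr3 and S100b), beside 1.75% of all genes. Gfap lost the call without Med23-/- replicate 1 (limma adjusted p = 0.0571). Over replicates 3 and 4 both Gfap and Aqp4 lost it, at log2 differences of -0.93 and -0.74 (limma adjusted p = 0.339 and 0.354). Slc1a2 was higher by a log2 difference of 0.67 (limma adjusted p = 0.0222, and 0.0197 to 0.324 over the alternatives). Slc1a3 and Aldoc did not pass the test (limma adjusted p = 0.740 and 0.998). The 10 mural and fibroblast genes summed to 13.6, 7.24, 2.22 and 2.79 FPKM across the Med23+/+ replicates against 21.8, 14.2, 12.1 and 4.72 FPKM across the Med23-/- replicates, highest in replicate 1 of each genotype as for Tubb3, and Lum and Vtn of that list stayed below 1 FPKM in every library. The 10 endothelial genes summed to between 2.39 and 4.24 FPKM, with Slco1a4 and Ly6c1 at 0 in every library, and the 6 ependymal genes to between 1.51 and 3.21 FPKM with Tmem212 at 0. The part of any of these cells in the members' levels was not tested.

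The genotype difference was then described for genes that share the members' roles but are not members. In the list of transmitter genes, which mark what a neuron releases, 9 of 19 were tested. Of these, 1 was tested only through its level in Med23-/- iOLs. Past both limits 3 rose, beside 2.98% of all genes: Gad1, Gad2 and Slc32a1, which together make and load the inhibitory transmitter GABA. Gad1 rose from 8.55 ± 2.85 to 26.1 ± 10.4 FPKM (SD, n = 4 per genotype; log2 difference 1.47, standard error 0.28, limma adjusted p = 0.00408), and its libraries ran 12.4, 5.68, 7.42 and 8.72 FPKM across the Med23+/+ replicates against 19.8, 15.6, 38.3 and 30.9 FPKM across the Med23-/- replicates. Slc32a1, the vesicular GABA transporter gene, rose by a log2 difference of 1.38 and Gad2 by 1.16 (limma adjusted p = 0.00326 and 0.0151). Without Med23-/- replicate 3 Gad2 fell short of the fold limit, at 0.92. The excitatory marker Slc17a7 had 0.24, 0.22, 0.86 and 1.51 FPKM across the Med23+/+ replicates against 1.24, 0.37, 6.204 and 4.71 FPKM across the Med23-/- replicates, overlapping between the genotypes (limma adjusted p = 0.141), and Slc6a4 and Vip were at 0 in every library.

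Of 23 neuronal transcription factor genes 13 were tested, 4 of them only through their level in Med23-/- iOLs. Past both limits 3 rose and 0 fell, beside 2.98% and 1.75% of all genes. Neurod1, a factor of neuronal differentiation, rose from 3.22 ± 1.29 to 9.99 ± 3.08 FPKM (SD, n = 4 per genotype, log2 difference 1.38, limma adjusted p = 0.00320). Over replicates 1 and 2 its log2 difference was 0.83, short of both limits (limma adjusted p = 0.126). Neurod2 rose by a log2 difference of 1.01 and Scrt2 by 1.01 (limma adjusted p = 0.0153 and 0.00618). Both stood at the edge of the fold limit, which is set on log2(FPKM + 1), while their ratios of mean FPKM were 2.78 and 2.64. Neurod2 was at 0.84 to 0.98 without Med23+/+ replicate 2 or 3 or Med23-/- replicate 3 or 4. Scrt2 was at 0.85 to 0.97 without Med23+/+ replicate 2 or 3 or Med23-/- replicate 1 or 4. Scrt1, the most abundant of the list, was at 6.03 ± 1.32 FPKM in the Med23+/+ genotype against 10.1 ± 1.94 FPKM in the Med23-/- genotype (SD, n = 4 per genotype), below the fold limit with a log2 difference of 0.66 (limma adjusted p = 0.0102, and 0.00149 to 0.121 over the alternatives). Tbr1, a factor of cortical projection neurons, stayed at or below 0.41 FPKM in every library, and Isl1 was at 0.

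In the list of neuronal cytoskeletal and RNA-binding genes 15 of 16 were tested. Past both limits 2 rose and 1 fell, beside 2.98% and 1.75% of all genes. Nsg2, an endosomal protein gene of neurons, rose from 48.3 ± 12.7 to 103 ± 14.9 FPKM (SD, n = 4 per genotype; log2 difference 1.10, limma adjusted p = 0.00162), and Elavl4, which codes for the RNA-binding protein HuD, rose by a log2 difference of 1.00 (limma adjusted p = 0.000348). Nsg2 was below the fold limit without Med23+/+ replicate 3 (0.96), and Elavl4 without Med23+/+ replicate 1 or Med23-/- replicate 3 or 4 (0.90 to 0.98). Map1b, a microtubule-associated protein gene of growing processes, fell from 71.3 ± 17.5 to 19.99 ± 3.81 FPKM (SD, n = 4 per genotype; log2 difference -1.78, limma adjusted p = 0.000126). Dpysl3, the most abundant gene of the list, had 326 ± 44.5 and 269.7 ± 66.0 FPKM (SD, n = 4 per genotype; limma adjusted p = 0.238).

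Of the 22 synaptic vesicle and SNARE genes, all tested and 2 of them only through their level in Med23-/- iOLs, 0 passed both limits of limma in either direction; by adjusted p alone 2 were higher and 2 lower, beside 15.9% and 14.1% of all genes. Vamp2, the vesicle partner of Snap25 in the SNARE complex, had 60.0 ± 4.62 FPKM in the Med23+/+ genotype against 60.0 ± 9.16 FPKM in the Med23-/- genotype (SD, n = 4 per genotype; log2 difference -0.01, standard error 0.11, limma adjusted p = 0.958), and its sign changed under quantile normalization. The median of the list was 0.26. Syn1 had 19.5, 15.6, 19.5 and 20.2 FPKM across the Med23+/+ replicates against 23.8, 20.2, 20.1 and 29.99 FPKM across the Med23-/- replicates, so that it overlapped between the genotypes where Snap25 and Syt1 did not.

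**Figure D5:**
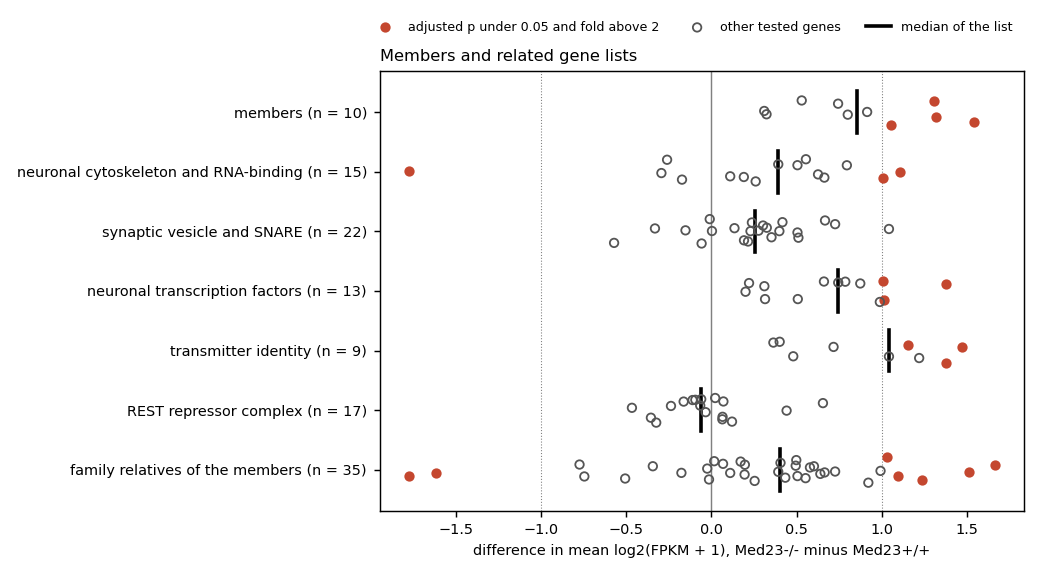
Log2 difference between the genotypes for each tested gene of the members and of 6 related lists, with filled red points for genes past both limits (adjusted p under 0.05 and fold above 2), open points for the others, black bars for list medians and dotted lines at a fold of 2. List medians run from -0.06 for the REST repressor complex to 0.86 for the members and 1.04 for the transmitter genes, the last being the value of Slc17a7, which was tested only through its Med23-/- level.

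Relatives of the members in the same protein families moved in both directions. Of 39 relatives 35 were tested, 1 of them only through its level in Med23-/- iOLs. Past both limits 5 rose and 2 fell, beside 2.98% and 1.75% of all genes. The median log2 difference of the tested relatives was 0.41. Among the tubulins, Tubb4a, a class used by oligodendrocytes, fell from 254 ± 31.8 to 81.6 ± 3.69 FPKM (SD, n = 4 per genotype; log2 difference -1.62, limma adjusted p = 1.86e-05), against the direction of Tubb3, and Tubb2b, the most abundant, had 528 ± 84.7 and 371 ± 49.6 FPKM (log2 difference -0.51, limma adjusted p = 0.0207, and 0.0152 to 0.197 over the alternatives). Among the stathmins, Stmn1 rose by a log2 difference of 1.10 and Stmn4 by 1.24 (limma adjusted p = 0.00379 and 0.00236), Stmn1 falling below the fold limit without Med23+/+ replicate 3 (0.90) or Med23-/- replicate 4 (0.95). Of the intermediate filament genes, Vim and Nes, which mark immature neural cells, rose by log2 differences of 1.51 and 1.67 (limma adjusted p = 0.00163 and 0.000722).

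Over the 6 lists together 13 of 105 tested genes rose past both limits, beside 2.98% of all genes tested. Past the same limits 2 fell, beside 1.75%. Of the 105 genes, 7 were tested only through their level in Med23-/- iOLs. The count of 13 was 8 without Med23-/- replicate 4. It was 2 over replicates 1 and 2, beside 1.74% of all genes, and 23 over replicates 3 and 4, beside 3.86%. The lists share some genes and were written with earlier results of these data known.

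Genes of the REST repressor complex and its partners were examined as a list of 17, of which 0 passed both limits of limma. By limma adjusted p alone 1 was higher and 2 were lower, beside 15.9% and 14.1% of all genes. Rest had 7.30, 7.15, 7.75 and 7.94 FPKM across the Med23+/+ replicates against 8.26, 7.40, 6.47 and 8.67 FPKM across the Med23-/- replicates (log2 difference 0.02, standard error 0.10, limma adjusted p = 0.893), with a sign that changed under quantile normalization. Ptbp1, which holds back neuronal splicing, had 58.0 ± 7.43 and 45.7 ± 11.1 FPKM (SD, n = 4 per genotype, log2 difference -0.36, limma adjusted p = 0.122). Over the alternatives the limma adjusted p of Ptbp1 ran from 0.0178 to 0.307. Hdac2, the deacetylase gene with the highest level in the list, was lower, at 93.6 ± 8.37 against 74.5 ± 6.22 FPKM (log2 difference -0.32, limma adjusted p = 0.0248). Its adjusted p was above 0.05 under quantile normalization (limma, 0.135) and without Med23+/+ replicate 2 (0.0632), Med23+/+ replicate 3 (0.0680) or Med23-/- replicate 1 (0.0634), and reached 0.201 over replicates 3 and 4.

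Promoter sequence was read for members with different within-genotype profiles, since the study concerns MED23 with the factor Sp1, which binds GC boxes. RefSeq windows for GRCm38 (the mm10 assembly) were given for 5 members: Map2, Tubb3, Syt1, Rbfox3 and Dcx. The windows printed here are the 250 bases before the RefSeq start, 5′ to 3′ on the strand of the gene, with GC boxes (GGGCGG or its reverse complement CCGCCC) in capitals.
Map2, chr1:66175079-66175328, plus strand: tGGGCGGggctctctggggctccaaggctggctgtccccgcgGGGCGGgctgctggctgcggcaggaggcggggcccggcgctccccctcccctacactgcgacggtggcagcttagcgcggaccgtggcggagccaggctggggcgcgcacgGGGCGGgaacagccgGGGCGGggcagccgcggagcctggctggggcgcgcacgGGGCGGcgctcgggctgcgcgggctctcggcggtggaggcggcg
Tubb3, chr8:123411303-123411552, plus strand: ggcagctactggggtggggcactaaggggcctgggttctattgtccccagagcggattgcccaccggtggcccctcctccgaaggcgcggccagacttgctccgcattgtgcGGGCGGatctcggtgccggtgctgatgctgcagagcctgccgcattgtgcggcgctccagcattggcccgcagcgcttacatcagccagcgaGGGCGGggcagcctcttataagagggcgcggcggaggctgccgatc
Syt1, chr10:109010976-109011225, minus strand: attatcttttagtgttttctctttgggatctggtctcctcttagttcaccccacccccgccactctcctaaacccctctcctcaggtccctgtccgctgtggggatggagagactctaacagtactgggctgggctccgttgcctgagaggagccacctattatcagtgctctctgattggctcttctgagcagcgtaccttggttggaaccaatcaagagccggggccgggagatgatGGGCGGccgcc
Dcx, chrX:143933220-143933469, minus strand: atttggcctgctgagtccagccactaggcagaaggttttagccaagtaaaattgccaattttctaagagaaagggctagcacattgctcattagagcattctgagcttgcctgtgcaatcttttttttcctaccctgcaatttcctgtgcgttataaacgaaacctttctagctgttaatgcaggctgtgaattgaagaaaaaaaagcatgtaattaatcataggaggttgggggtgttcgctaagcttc

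The Map2 window held 5 GC boxes, the Tubb3 window 2 and this Syt1 window 1, while a second Syt1 window, that of Rbfox3 and the pair for Dcx held 0. The Rbfox3 window (chr11:118761042-118761291, minus strand) lay inside the span given above for the gene, so it precedes an internal start. Of 32851 promoter windows of the same length, 32.7% held a GC box. GC content was 81.2% for Map2, 68.0% for Tubb3, 56.4% for Syt1 and 41.6% for Dcx, beside a median of 52.4% over all windows. Neither TTCAGCACC, the left part of the element that REST binds, nor the E-box CAGATG was found on either strand in these 7 windows, beside 0.301% and 14.4% of all windows. Matches to these letters describe the windows only.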

How the data were processed

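RNA-seq was measured in 8 cultures of iOLs, 4 per genotype, grouped by their titles. Before deposit the authors used FastQC and Cutadapt on the reads, Tophat2 with default settings for alignment against mm10, and cuffdiff (-b, -u) for quantification; versions, annotation and library normalization are not given in the sources used here. The authors deposited FPKM per library, and their FPKM per genotype, test statistic, log2 fold changes, p-values and q-values were not used. No counts were used, so depth is unknown; from steps between values under 0.1 FPKM, 1 read was worth between 0.740 and 1 times its worth in Med23+/+ replicate 1. All 8 library columns were used.

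Values were transformed to log2(FPKM + 1) for the 12328 genes averaging 1 FPKM or more and compared with limma 3.58.1 in R 4.3.3 (eBayes with trend, Benjamini-Hochberg over all genes). A gene was called where its adjusted p was under 0.05 and it changed more than 2-fold in FPKM + 1. The fit was first tested on simulated data. Coordinates are from GENCODE vM21. Sequences are from RefSeq.

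Named genes were the members, Med23, Rest, Ptbp1, the most abundant gene and the called genes with the largest rise and fall of each list, and the 5 nearest profiles; further list genes in the text were picked knowing their values. The members and lists were chosen with earlier results of these data known.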

Additional observations from a re-analysis of the deposited data

Results flagged for a closer look

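In groups of 4 libraries, a library was singled out where its gap to the nearest other library, as a share of the range of the group, exceeded Dixon's critical value for 4 samples, which chance alone gives in about 1 group in 20. Of 58 groups examined, 5 had such a library. Med23+/+ replicate 1 stood apart for 3 members: above the others for Tubb3 (19.4 FPKM, gap of 0.859 of the range) and Snap25 (16.5 FPKM, 0.907), and below them for Nefm (1.39 FPKM, 0.845). Med23+/+ replicate 3 stood above the others for Map1b (97.3 FPKM, 0.843), and Med23-/- replicate 2 below the others for Snhg3 (10.2 FPKM, 0.926). Without Med23+/+ replicate 1 the log2 difference of Tubb3 was 1.09.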

How the results depend on the processing

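The log2 difference of the 10 members was recomputed under up to 17 alternatives each, 168 values in all. None changed sign; 12 lost the call (6 for Rbfox3, 4 for Syt1, 1 each for Stmn2 and Snap25) and 2 gained it (Tubb3 and Nefl). By adjusted p alone, 9 members, 37 genes of the 6 lists and 1957 of all genes were higher, and 9 genes of the lists and 1738 of all genes were lower. A pseudocount of 0.1 moved the higher calls over all genes from 367 to 654 (lower calls 216 and 273). Leaving out each library in turn gave between 2 and 5 members and between 8 and 18 list genes called higher. Over replicates 1 and 2, a choice made after seeing the data, the higher calls were 215 of all genes (1.74%), 2 of the lists and 0 of the members. Over replicates 3 and 4 they were 476 of all genes (3.86%), 23 of the lists and 5 of the members. Under median-ratio scaling Elavl4, Neurod2 and Scrt2 fell just below the fold limit, at 0.99, 0.9994 and 0.997. Med23 kept its direction and its limma adjusted p under 0.05 in every setting tried.

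Of the 18 other named genes, 4 with small differences changed sign: Vamp2 was at 0.10 and Rest at -0.067 under quantile normalization; over replicates 3 and 4 Vamp2 was at 0.11, Rest at -0.057 and S100a10 at 0.51; over replicates 1 and 2 Ndufa4 was at -0.13; leaving out single libraries gave between -0.099 and 0.077 for Vamp2, -0.031 and 0.093 for Rest, and -0.34 and 0.14 for S100a10. The cause was not tested. The replicate numbers gave deviations that correlated by 0.13, -0.10, -0.03 and 0.16 over genes for numbers 1 to 4, and not every library correlated best with its own number, so the numbers were not treated as pairs; with the replicate number as a block the higher calls were 371 of all genes, 14 of the lists and 4 of the members, and the lower calls 216, 2 and 0. Unknown depth limits what can be said of genes near 1 FPKM, such as Nefm.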

Other observations

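Genes of inhibitory interneurons and their precursors, picked here after their values were seen, had library patterns of more than a single kind. Other such genes of the lists were low: Lhx6 stayed at or below 0.089 FPKM, Calb1 at or below 0.24 FPKM, and Vip was at 0. Pvalb averaged 0.52 FPKM in Med23+/+ and 0.35 FPKM in Med23-/- libraries. Npy was highest in Med23-/- replicate 1, at 2.45 FPKM against 0.22 FPKM in Med23-/- replicate 3. Calb2, a calcium-binding protein gene, had 4.78, 1.33, 1.56 and 3.90 FPKM in the Med23+/+ and 4.90, 3.55, 16.4 and 9.61 FPKM in the Med23-/- libraries. Sst, the somatostatin gene, had 14.8, 6.44, 9.25 and 7.76 FPKM in the Med23+/+ and 7.28, 7.77, 25.1 and 20.02 FPKM in the Med23-/- libraries. Both overlapped between the genotypes (limma adjusted p = 0.0590 and 0.384), and both were highest in Med23-/- replicate 3, as Syt1 was.

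The homeobox gene Dlx2, which acts in precursors of GABA neurons, instead had 2.97, 1.13, 0.90 and 1.13 FPKM in the Med23+/+ and 2.88, 1.42, 1.42 and 1.77 FPKM in the Med23-/- libraries. It was highest in replicate 1 of both genotypes, as Tubb3 was, and it was among the 123 genes nearest to Tubb3 in within-genotype profile together with Dlx5, Scrt1 and Uchl1.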
